A study of Mus musculus with 4 samples.

Results

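Livers of 5-month-old mice transgenic for WHV/c-myc, at a stage the study calls preneoplastic, were compared with livers of wild-type mice of that age. The pair was chosen by its labels alone and made up 2 of the 4 arrays of the study, with 1 array a group. The wild-type group was normal liver of C57/BL6 mice. The transgenic group was non-tumorous liver of C57/BL6 mice that carry a c-myc transgene with regulatory sequences of woodchuck hepatitis virus, and these livers showed hepatocyte dysplasia of mild to moderate degree. The other 2 arrays held wild-type liver and transgenic tumour tissue at 11 months, mainly trabecular hepatocellular carcinoma of good differentiation, and are given beside the 5-month values where they bear on them. Each array stands for 5 mice, with mixing of the samples and averaging of separate samplings both named in the labels, so no spread between mice can be given and no test was possible. All mice were kept free of pathogens on a cycle of equal light and dark with food at will. The labels used here do not state the sex of the mice, the hour of collection or the time since the last meal.

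Myc is a transcription factor that binds DNA together with Max, most often at the sequence CACGTG, and raises the making of ribosomes, nucleotides and the proteins of DNA replication. In hepatocytes, forced Myc expression drives growth and division and in the long run leads to liver cancer. The liver at rest divides little and devotes its transcripts to plasma proteins, lipid and bile acid handling and detoxification, and many of these genes follow feeding, the hour of day, stress hormones and sex.

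The deposited values were linear intensities of probe sets, and after quantile normalization those below the common median of 28.3, called the floor here, were raised to it. Where only 1 array of a pair is above the floor the ratio is a bound ("at least"), and where neither is, none was formed. Levels are not compared between genes, since probe sets differ in how strongly they bind. The deposited median intensity was 27.6 on the wild-type array and 25.2 on the transgenic array, and 11589 and 11650 genes lay above the floor. The precision is limited by the number of arrays.

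The check of the transgene was not informative. Myc was read by 1 probe set, at 42.5 in wild-type and below the floor in transgenic liver at 5 months, and at 42.1 and below the floor at 11 months. No source used here says whether this probe set matches the transcript of the transgene, so the groups rest on the labels. Its partners were close to even: of 17 members of the Myc family list with a ratio, 7 were above 0 and 10 below, none by 2-fold, and Mxd4, a repressor that competes with Myc for Max, was the highest at 0.79 on the log2 scale.

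**Figure D1:**
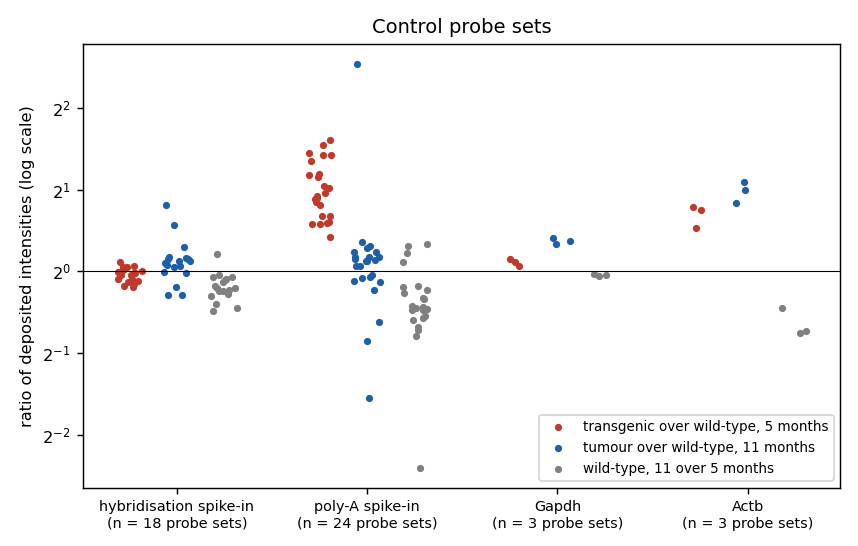
Ratios of deposited intensities of control probe sets, on a log scale, for 3 pairs of arrays; each point is 1 probe set. All 24 poly-A spike-in probe sets lie above 1 in the 5-month pair, while the 18 hybridisation spike-ins of that pair lie between 0.873 and 1.083.

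The control probe sets of the 5-month pair stood apart in 1 respect. Poly-A spike-ins are bacterial transcripts that the platform's protocol provides for addition to the RNA before labelling, and all 24 of their probe sets were higher on the transgenic array, by 1.343-fold to 3.049-fold with a median of 1.913-fold, in deposited values. Hybridisation spike-ins, which are added after labelling, differed by 0.976-fold at the median (18 probe sets, 0.873 to 1.083). The 3 control probe sets for Gapdh were 1.05-fold to 1.108-fold and the 3 for Actb 1.439-fold to 1.732-fold higher on the transgenic array. The part of these differences in the results below was not tested. Hepatocyte markers checked the tissue: all 9 that were measured lay within -0.09 and 0.23 on the log2 scale, with a median of 0.0, and albumin (Alb) stood at 5205 and 5482.

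Of 12651 genes with a ratio at 5 months, 187 (1.48%) were at least 2-fold higher and 171 (1.35%) at least 2-fold lower in transgenic liver, 358 (2.83%) in all. The median log2 ratio of all these genes was -0.01, with 5% of genes below -0.68 and 5% above 0.69. For 82 of the higher and 64 of the lower genes the ratio is a bound, and 23 genes were at least 4-fold higher and 8 at least 4-fold lower. As deposited, before quantile normalization, the split was 137 higher and 208 lower. The wild-type arrays of 11 and 5 months, which differ in age alone by their labels, gave 274 higher (2.14%) and 319 lower genes (2.49%) by the same rule, 4.62% in all, more than the pair of genotypes did. Other probe sets checked some calls: 69 of the higher genes had another measured probe set, and in 22 of them at least 1 pointed the other way, as it did in 30 of 66 lower genes. Among genes under 2-fold this was so in 2684 of 5057. Another probe set reached 2-fold in the same direction in 20 of the 69 higher and 12 of the 66 lower genes. Each gene is given by its probe set of highest mean level. For some named genes 1 or 2 other measured probe sets had the same sign but stood under 2-fold. Examples are Nol12 (log2 ratio 0.15), Mcm2 (0.14), Mcm4 (0.35), Col3a1 (0.12), Cdh5 (-0.03), Tspan8 (-0.23), Socs3 (-0.23) and Ercc1 (0.31 and 0.58). Further examples are Jun (-0.58), Fabp5 (0.70), Hsph1 (0.81), Lpin1 (-0.86), Onecut1 (0.90) and Pim3 (-0.47).

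**Figure D2:**
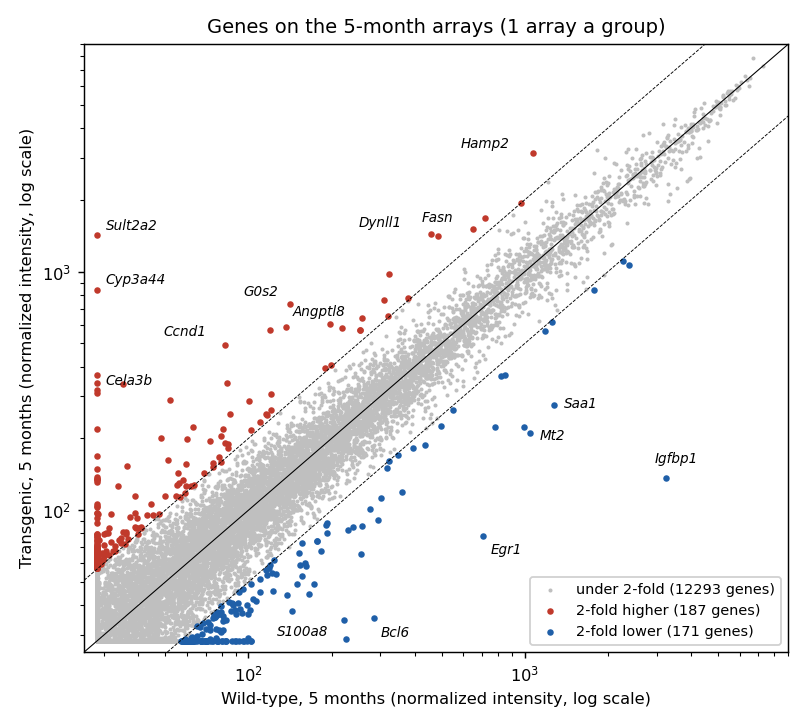
Normalized intensity of each gene with a ratio on the wild-type (x axis) and transgenic array (y axis) at 5 months, both on log scales, with values below the floor drawn at the floor; dashed lines mark 2-fold. Of the 187 higher genes 82 sit on the left edge, where wild-type values are at the floor, and Igfbp1 is the point farthest below the diagonal among strongly read genes.

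Among the listed genes of G1, replication and mitosis, 3 reached 2-fold at 5 months, Ccnd1, Mcm2 and Mcm4. Ccnd1, which encodes cyclin D1 and drives the passage from G1 into S phase, read 82.2 in wild-type and 494 in transgenic liver, a 6.01-fold difference (log2 ratio 2.59), and its other 2 measured probe sets pointed the same way. At 11 months Ccnd1 was at 95.2 in wild-type and 312 in tumour tissue, so both wild-type arrays lay below both transgenic ones. Of 16 measured genes of the G1 list 10 were above 0 (median 0.04), and Ccnd1 alone reached 2-fold; Cdk4, the kinase that cyclin D1 activates, was at 0.62 on the log2 scale, and the inhibitor Cdkn1a (p21) at -0.46. In the list of replication genes 12 of 16 were above 0 (median 0.36) and 2 reached 2-fold, beside 1.48% of all genes higher. These were subunits of the helicase that opens replication origins: Mcm4 read 44.3 and 106, and Mcm2 30.4 and 67.4. Other subunits of that helicase were under 2-fold, with log2 ratios of 0.41 for Mcm7, 0.38 for Mcm3 and, as a bound, 0.50 for Mcm6. Genes of mitosis were near or below the floor: 10 of 19 on the array had no ratio, and the 9 others had a median of -0.06 with 0 at 2-fold. Mki67, the proliferation marker Ki-67, stood at 28.8 in transgenic liver, against 258 in tumour tissue. In that tissue 13 of 20 replication genes and 16 of 19 mitosis genes were 2-fold higher than in wild-type liver of the same age, where 1072 of 12920 genes (8.3%) were.

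Genes for making ribosomes lay a little above even. Of 33 measured genes of ribosome biogenesis, 25 were above 0 and 8 below, with a median log2 ratio of 0.29 and 0 at 2-fold, beside 48.8% of all genes above 0. Polr1e, a subunit of RNA polymerase I, was the highest at 0.89 (from 36.8 to 68.1), followed by Nop2, a nucleolar methyltransferase of ribosomal RNA, at 0.87 (from 51.4 to 94.1), and Nolc1, a nucleolar phosphoprotein, at 0.78. Noc2l was the lowest at -0.45. At 11 months the same list had a median of 1.52, with 23 of 33 genes 2-fold higher in tumour tissue, beside 8.3% of all genes. All 13 chaperonin and mitochondrial chaperone genes, which fold new proteins, were above 0, from 0.07 for Cct6a to 0.69 for Cct3, with a median of 0.26. Of 16 cytosolic ribosomal protein genes 13 were above 0 (median 0.10), and of 15 translation factors 12 (median 0.14), none by 2-fold. Psph, which makes serine, was the only gene of the serine, one-carbon and polyamine list at 2-fold, at 37.2 in wild-type and 93.7 in transgenic liver. Odc1, the entry enzyme of polyamine synthesis and a known Myc target, was at 0.59. Nol12, a nucleolar protein outside that list, was at least 4.89-fold higher at 5 months, and read 40.4 and 221 at 11 months. Rps4l, a gene similar to the ribosomal protein gene Rps4x, read 33.8 and 127, and 69.6 and 264 at 11 months.

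The E box CACGTG, searched on both strands (it reads the same on each), was looked for from 250 bases before to 50 after the start sites in RefSeq's GRCm38.p6 annotation. It was present for 13 of 152 higher genes with a promoter in that table (8.55%), 14 of 140 lower genes (10%) and 1130 of 10200 genes with a ratio (11.1%). Among the genes of ribosome biogenesis 7 of 29 had it (24.1%), and among clock genes of the negative limb, described further on, 5 of 12 (41.7%). As examples of each, the bases before the start site of Nop2 (chr6:125131733-125131882, plus strand) and of the clock gene Ciart (chr3:95882229-95882378, minus strand) are printed with the E box in capitals. A match says only that these letters are there.
Nop2: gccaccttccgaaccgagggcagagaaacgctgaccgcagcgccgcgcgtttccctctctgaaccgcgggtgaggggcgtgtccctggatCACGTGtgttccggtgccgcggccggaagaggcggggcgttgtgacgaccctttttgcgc
Ciart: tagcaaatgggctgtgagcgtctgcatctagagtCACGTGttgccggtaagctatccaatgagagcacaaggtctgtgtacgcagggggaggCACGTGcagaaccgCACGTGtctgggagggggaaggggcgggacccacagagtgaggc

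**Figure D3:**
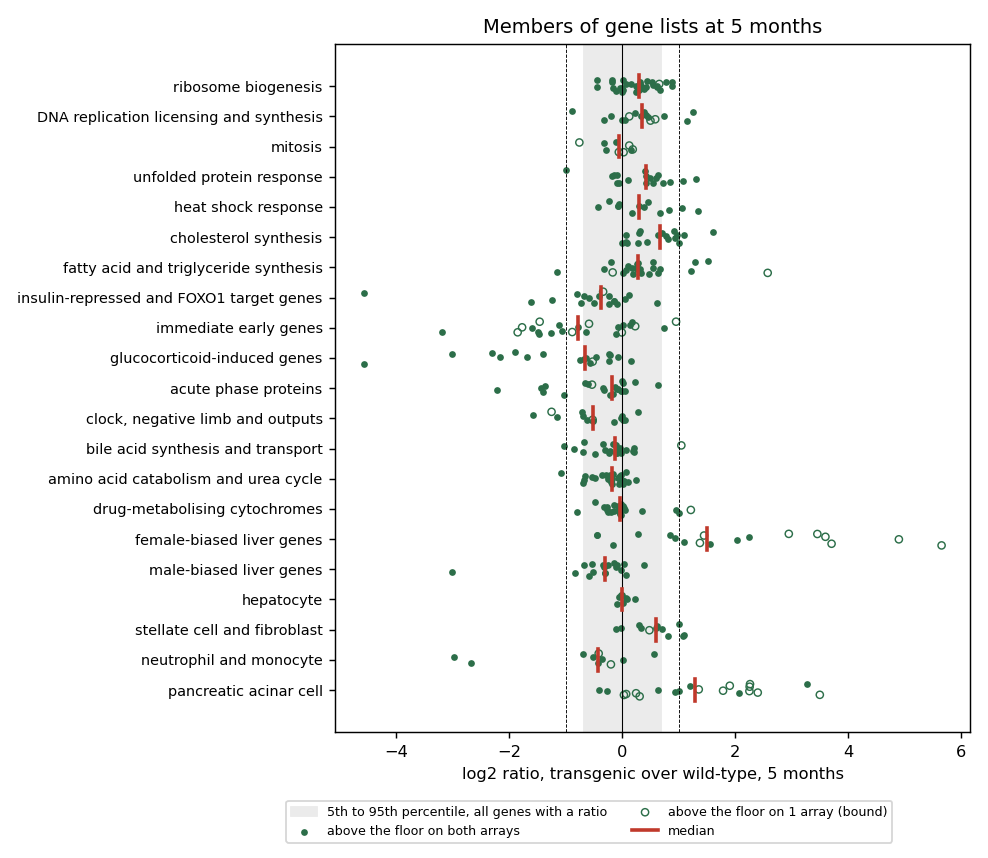
Log2 ratios of transgenic over wild-type liver at 5 months for the measured members of 21 gene lists; each point is a gene, open points are bounds, red bars are medians, the grey band spans -0.68 to 0.69 (the 5th to 95th percentile of all genes) and dashed lines mark 2-fold. Female-biased and pancreatic acinar genes reach farthest to the right, and immediate early and glucocorticoid-induced genes lie mostly to the left of 0.

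Chaperones of the endoplasmic reticulum and of the heat shock response were mostly above 0. The unfolded protein response of the endoplasmic reticulum raises folding helpers when secretory proteins pile up. Of its 18 listed genes 12 were above 0 (median 0.43) and 2 reached 2-fold, beside 1.48% of all genes higher: Creld2, a folding factor of the endoplasmic reticulum, read 258 and 638, and Sdf2l1, a cofactor of the chaperone BiP, 110.5 and 234. Hspa5, which encodes BiP, was at 0.49, Hyou1 at 0.84, and Herpud1, a factor of protein disposal, was the lowest of the list, with 1935 and 968. The disposal factor Derl3, outside the list, was below the floor in wild-type and at 88.0 in transgenic liver, but read 143 in wild-type liver at 11 months and 45.0 in tumour tissue. Of 13 heat shock genes 8 were above 0 (median 0.29): Hsph1, a partner of Hsp70, read 121 and 306, and the small heat shock gene Hspb1 189 and 394. The inducible Hsp70 gene Hspa1b was even, at -0.05. Targets of the stress factor ATF4 went mostly the other way, with 10 of 14 below 0 (median -0.26). This median was 0.046 against the 11-month wild-type array and 0.012 when the wild-type arrays of both ages were averaged as control.

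The element bound by ATF6 in promoters of folding genes, written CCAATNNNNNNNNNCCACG and searched on both strands, was found in the RefSeq promoters of 3 of 152 higher genes (1.97%), namely Acacb, Creld2 and Derl3, of 0 of 140 lower genes and of 17 of 10200 genes with a ratio (0.167%). In the list of the unfolded protein response 7 of 16 promoters (43.8%) held it. The 7 were those of Hspa5, Hsp90b1, Pdia6, Calr, Canx, Dnajc3 and Creld2, with log2 ratios from -0.15 for Canx to 1.31 for Creld2. The promoters of Creld2 (same build, chr15:88819496-88819645, plus strand) and Derl3 (chr10:75893148-75893397, plus strand) are shown with the matching stretch in capitals, as the pair of higher folding genes that hold it.
Creld2: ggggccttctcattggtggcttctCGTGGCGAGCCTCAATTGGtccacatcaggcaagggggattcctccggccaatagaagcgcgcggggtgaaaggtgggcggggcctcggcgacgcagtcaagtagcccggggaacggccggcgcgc
Derl3: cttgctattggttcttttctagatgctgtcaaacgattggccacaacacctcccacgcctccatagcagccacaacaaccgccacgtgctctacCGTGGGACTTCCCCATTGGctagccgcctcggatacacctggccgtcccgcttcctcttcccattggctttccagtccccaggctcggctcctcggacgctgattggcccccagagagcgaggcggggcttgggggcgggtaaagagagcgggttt

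Enzymes that build cholesterol were above even nearly throughout. Of 18 measured genes of cholesterol synthesis 17 were above 0 (median log2 ratio 0.67), 3 by 2-fold, beside 1.48% of all genes higher. Sqle, squalene epoxidase and a control point late in the path, read 197 in wild-type and 604 in transgenic liver, and 93.5 and 269 at 11 months. Mvd, which makes isopentenyl diphosphate, read 74.3 and 158, and Fdps, which joins isoprenoid units, 969 and 1943. The next in size were Lss (0.97), Mvk (0.93) and Hsd17b7 (0.91), and Msmo1 stood at 0.00. The list was lower with age in wild-type liver, at a median of -0.60 for 11 over 5 months, and against the 11-month wild-type array the 5-month transgenic array had all 18 genes above 0, at a median of 1.16. Genes that sterols regulate but that do not build cholesterol gave no such shift, with 6 of 14 above 0 (median -0.14), Srebf2 at 0.08 and Insig1, an SREBP-induced brake on the path, at -0.26.

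Fatty acid and triglyceride synthesis followed, in part. Of 24 genes 20 were above 0 (median 0.27), with 4 at least 2-fold higher and 1 lower, beside 1.48% and 1.35% of all genes. Fasn, fatty acid synthase, read 647 and 1503, and Elovl6, which lengthens its product, 310.4 and 760.0. Aacs, which activates acetoacetate for lipid synthesis, read 101 and 288, although its other probe sets did not all point the same way. Acacb, the acetyl-CoA carboxylase that makes the malonyl-CoA restraining fat oxidation, was below the floor on every array but that of 5-month transgenic liver, where it was 168, at least 5.96-fold higher. Its sister gene Acaca was at 0.19, Acly at 0.66 and the desaturase gene Scd1 at 0.07. Lpin1, a phosphatidate phosphatase that fasting and glucocorticoids raise, was the lower one, from 820.2 to 366.

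Angptl8, which feeding and insulin raise and which steers plasma triglycerides away from oxidative tissue, read 136 in wild-type and 585 in transgenic liver at 5 months, against 124 and 151 at 11 months. G0s2, an inhibitor of the triglyceride lipase ATGL, went from 141 to 734, yet wild-type liver at 11 months read 1105, above both. In the list of feeding-induced genes, which overlaps the synthesis list, 14 of 17 were above 0 (median 0.33) and 4 at 2-fold: Acacb, Angptl8, Elovl6 and Fasn. In the list of lipid droplets and lipolysis 14 of 17 were above 0 (median 0.41), with G0s2 and Angptl8 at 2-fold, beside 1.48% of all genes higher. Genes of fatty acid oxidation had a median of 0.23, with 20 of 25 above 0 but 1 at 2-fold, the peroxisomal thioesterase Acot3, from 119.7 to 568. At 11 months Acot3 read 516 in wild-type liver and 102 in tumour tissue. Both medians turned against the 11-month wild-type array, to -0.185 for lipid droplets and lipolysis and -0.171 for fatty acid oxidation. Fabp5, a carrier of fatty acids named after its values were seen, read 716 and 1679 at 5 months, and 231 and 1358 at 11 months, higher in transgenic tissue at each age. Cyp7a1, which sets the pace of bile acid synthesis from cholesterol, was lower, at 1257 and 616, and Cyp8b1, which sets the type of bile acid, was at -0.85. Of 22 genes of bile acid synthesis and transport 17 were below 0 (median -0.13), and only Abcc4, an export pump of the sinusoidal side, was 2-fold higher, as a bound.

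Genes that insulin represses were mostly below even. Igfbp1, a circulating binding protein of insulin-like growth factors whose liver transcript insulin shuts off and fasting, stress and glucocorticoids raise, had the largest difference of any gene above the floor on both arrays, 3242 in wild-type and 137 in transgenic liver (23.7-fold, log2 ratio -4.56). The arrays of 11 months lay between these, at 950.0 and 714. Of 18 genes of the insulin-repressed list 15 were below 0 (median -0.38), 3 by 2-fold, beside 1.35% of all genes lower: Igfbp1, the stress gene Gadd45a (150.3 and 49.2) and Trib1 (80.7 and 34.3), of which Trib1 had another probe set of opposite sign. Pck1, the gatekeeper of glucose production, was at -0.74, Klf15 at -0.81 and the tyrosine breakdown gene Tat at -0.67, while G6pc, the final enzyme of glucose release, was at -0.09. The list of gluconeogenesis and glycogen as a whole was even, at a median of 0.00 with 0 of 17 genes at 2-fold. Igf2, the fetal growth factor, was higher, 31.9 against 73.7, and Igf1 was at 0.07.

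**Figure D4:**
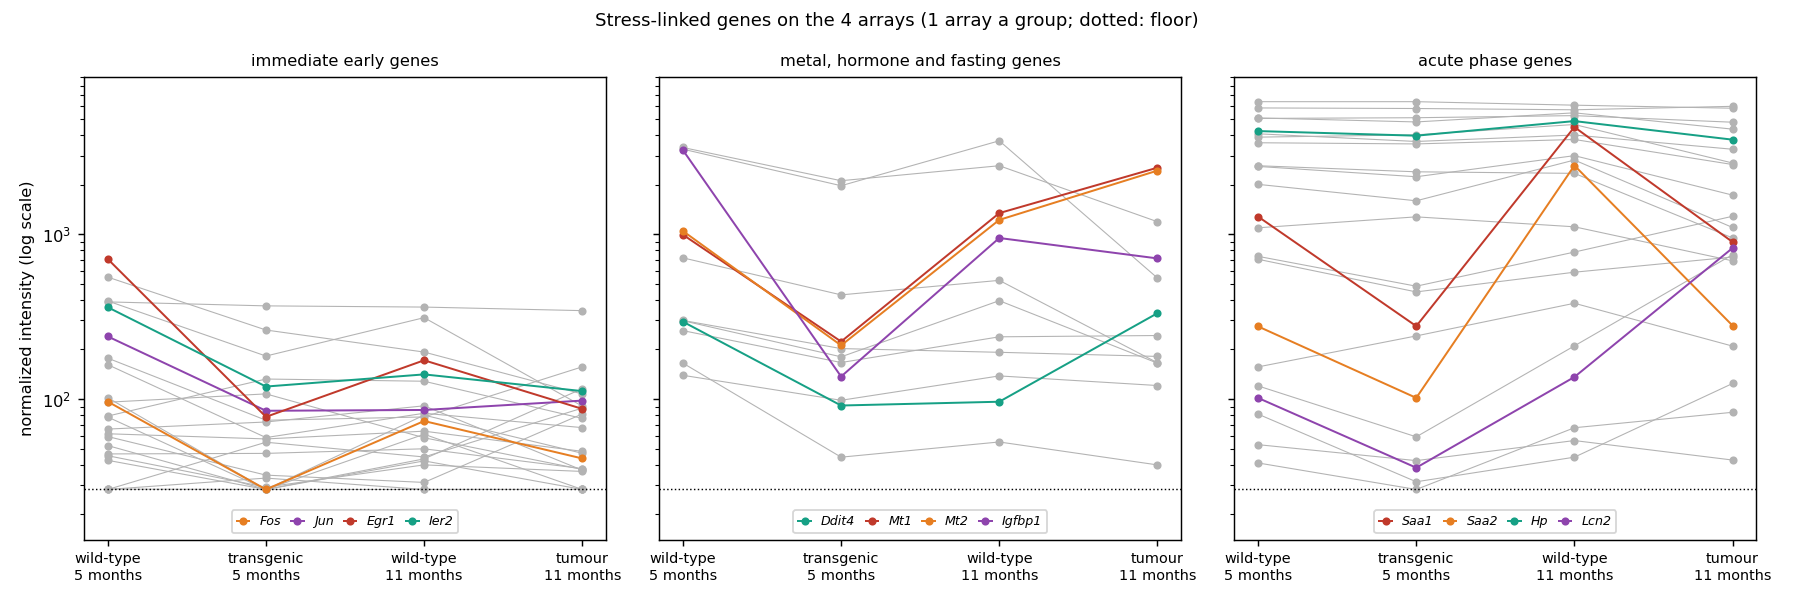
Normalized intensity on a log scale on each of the 4 arrays for immediate early genes, for genes of metal, hormone and fasting responses, and for acute phase genes; each line is a gene, coloured lines are named and the dotted line is the floor. Most coloured lines drop from the 5-month wild-type to the 5-month transgenic array. Egr1 and Jun also read lower on both 11-month arrays than on the 5-month wild-type array. Saa1 and Saa2 are highest in 11-month wild-type liver.

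Immediate early genes, which encode transcription factors switched on within minutes by growth factors or stress, were mostly lower in transgenic liver at 5 months. Of 23 measured 17 were below 0 (median log2 ratio -0.78), 10 by 2-fold and 0 higher by 2-fold, beside 1.35% of all genes lower. Egr1 read 708 in wild-type and 78.0 in transgenic liver (9.07-fold), Jun 239.9 and 84.9, Ier2 361 and 119, and Nr4a1 162 and 58.4. Fos, at 96.5 in wild-type liver, and the stress factor Atf3, at 102, were below the floor in transgenic liver. The wild-type array of 5 months was the high one of the 4 for several of these genes: Egr1 read 172 and 87.2 at 11 months, Jun 85.9 and 97.9, and Ier2 141 and 112. The list as a whole stood at a median of -0.34 in wild-type liver at 11 over 5 months. Not all members shared the direction: 6 were above 0, the highest at 0.95, among them Junb at 0.14, Klf10 at 0.75 and Ccn1 at 0.17.

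Genes that glucocorticoids induce were mostly below even as well, 17 of 18 below 0 (median -0.66), 7 by 2-fold, beside 1.35% of all genes lower. This list shares members with those of insulin, metals and the acute phase. The 7 were Igfbp1, Bcl6, Mt2, Mt1, Gadd45g, Ddit4 and Lcn2. The classical targets Tsc22d3, which encodes GILZ, and Fkbp5 were under 2-fold, at -0.75 and -0.64. Gadd45g, a growth arrest gene, read 165 and 44.4 at 5 months, and 54.9 and 39.8 at 11 months. Ddit4, an inhibitor of the growth kinase mTORC1, read 295 and 91.4, and 96.3 and 332 at 11 months. Cebpd and Cebpb, transcription factors of the acute response, were lower, at 144 and 37.7 for Cebpd and 848 and 368 for Cebpb.

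The metallothioneins Mt1 and Mt2, small proteins that bind zinc and copper and that metals, stress hormones and cytokines induce, followed the same course over the 4 arrays. Mt1 read 994 in wild-type and 223 in transgenic liver at 5 months (4.45-fold), and 1345 and 2538 at 11 months. Mt2 read 1047 and 212 (4.95-fold), and 1224 and 2437 at 11 months. For both genes the 5-month transgenic array was the lowest of the 4 and the tumour array the highest. The zinc exporter gene Slc30a1, another target of the metal sensor MTF1, was at -0.73, and Mtf1 itself at -0.50. Hamp2, a sister gene of the iron hormone gene Hamp, was higher, at 1073 and 3139.8, and read 1301 and 1076 at 11 months, while Hamp itself was even at 0.05. Mt1 and Mt2 are neighbours on chromosome 8. Their promoters (same build, chr8:94178939-94179088 and chr8:94172368-94172617, both plus strand) are shown for the pair's shared course, with matches to TGCNCNC, the letters common to metal response elements, in capitals; in the 250 bases before the start, Mt1 has 1 match and Mt2 has 5. These letters are short and are found in the RefSeq promoters of 63.2% of the genes with a ratio, of 57.9% of the higher and of 68.6% of the lower genes.
Mt1: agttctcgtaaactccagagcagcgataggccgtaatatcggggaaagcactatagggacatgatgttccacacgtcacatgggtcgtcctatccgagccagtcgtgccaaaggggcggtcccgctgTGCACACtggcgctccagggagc
Mt2: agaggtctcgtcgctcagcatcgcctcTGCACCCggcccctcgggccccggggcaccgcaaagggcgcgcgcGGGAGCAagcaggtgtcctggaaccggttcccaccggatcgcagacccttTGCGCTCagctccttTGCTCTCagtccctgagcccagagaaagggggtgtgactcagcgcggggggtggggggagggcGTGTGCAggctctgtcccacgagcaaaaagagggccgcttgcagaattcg

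Acute phase genes, which the liver makes under interleukin signals during inflammation, were lower in part. Of 22 measured, 17 were below 0 (median -0.18), 5 by 2-fold, beside 1.35% of all genes lower. Saa1 read 1281 in wild-type and 277 in transgenic liver and Saa2 276 and 102, and both were highest in wild-type liver of 11 months, at 4478 and 2617. Lcn2, an iron-trapping protein, read 102 and 38.3, but 136 and 826 at 11 months. Saa3 and the endotoxin receptor gene Cd14 were also 2-fold lower. Other members were even, with Hp at -0.09, Fga at -0.01 and Orm1 at -0.02. Among genes of cytokine signalling, the feedback inhibitor Socs3 read 229.8 and 82.9 and the kinase gene Pim3 779.6 and 224, while Stat3 was at 0.16 and Cish at 0.10. Neutrophil and monocyte markers moved with this list: S100a8 and S100a9, which form calprotectin and are abundant in neutrophils, read 225 and 28.8, and 222 and 34.7. Of 15 such markers 10 had a ratio, 8 of them below 0, Camp and Cxcr2 were below the floor on both arrays, and the summed intensity was 903 in wild-type and 394 in transgenic liver. Without S100a8 and S100a9 the others ranged from -0.69 for Ngp to 0.56 for Il1b. The plasma cell gene Jchain, the joining chain of secreted antibodies, read 256 and 65.8. In bulk tissue, fewer cells of a type and less RNA per cell cannot be told apart, and the part of these cells in the lower acute phase genes was not tested. Interferon-stimulated genes had 0 of 21 at 2-fold (median 0.13), and Kupffer cell and macrophage markers 0 of 14 (median -0.05).

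Clock genes of the negative limb, which the factors Clock and Bmal1 drive through E boxes and most of which peak late in the light phase, were lower in part. Of 14 measured 11 were below 0 (median -0.52), 3 by 2-fold, beside 1.35% of all genes lower: Usp2 read 257 and 85.9, Per3 80.9 and 36.2, and Ciart 67.2 in wild-type and below the floor in transgenic liver. Another probe set of Per3 pointed the other way. Per2 was at 0.28, Nr1d1 at -0.03 and the output gene Dbp at -0.62. Of 8 genes of the positive limb none reached 2-fold (median -0.13), with Arntl, which encodes Bmal1, at -0.12 and Clock at 0.19. The Ciart promoter printed above holds 3 E boxes in the 150 bases before its start site. At 11 months the list had a median of -1.28, with 9 of 15 genes 2-fold lower in tumour tissue, beside 6.51% of all genes.

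Female-biased genes of the liver, whose sex difference is set by the rhythm of growth hormone release, held the 4 largest bounds among the higher genes. Of 18 measured 15 were above 0 (median log2 ratio 1.498) and 12 were 2-fold higher, 0 lower, beside 1.48% of all genes higher. Sult2a2, a sulfotransferase of steroids and bile acids, was below the floor in wild-type liver at 5 months, at 1419.9 in transgenic liver (at least 50.2-fold higher), below the floor in wild-type liver at 11 months and at 50.1 in tumour tissue. Cyp3a44, a steroid-hydroxylating cytochrome, read 841 (at least 29.8-fold higher) and was below the floor on the other 3 arrays, as were Sult3a1 (342) and Cyp3a16 (218). These families hold close copies, which a probe set may read together. Cyp2b9 read 368 against a wild-type value below the floor at 5 months but 144 at 11 months. Hao2, a hydroxyacid oxidase, read 309 in transgenic liver and 58.3 and 78.1 at 11 months. Cyp17a1, a steroid hydroxylase, read 83.5 and 343, and 78.5 and 278 at 11 months, higher in transgenic tissue at each age. Onecut1, a transcription factor that is more active in female liver, read 85.6 and 253. Cux2, a female-specific repressor, was under 2-fold, at 82.0 and 59.9.

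Male-biased genes differed less. Of 19 measured 16 were below 0 (median -0.30), yet only Bcl6, a repressor that is higher in male liver and that holds down female-biased genes, was 2-fold lower, from 284 to 35.2; it read 248 and 48.6 at 11 months. Hsd3b5 read 1718 and 1791, Cyp4a12a 1874 and 1512, and the transporter gene Slco1a1 1686 and 950.0. In tumour tissue 16 of 20 male-biased genes were 2-fold lower (median -2.36), beside 6.51% of all genes, and Hsd3b5 was below the floor. Xist, the RNA that silences an X chromosome in female cells, read 63.2 and 223 at 5 months and 71.0 and 54.9 at 11 months. Of its other 2 probe sets, 1 read 370.2 in 5-month transgenic liver and was below the floor on the other 3 arrays, and 1 was below the floor on all 4. The Y-linked genes Kdm5d, Eif2s3y and Uty stood at 0.41, -0.18 and -0.29 at 5 months. The median of 372 X-linked genes with a ratio was -0.02. Of them 4 were 2-fold higher and 6 lower, beside 1.48% and 1.35% of all genes. The part of the sex of the mice in these differences was not tested.

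**Figure D5:**
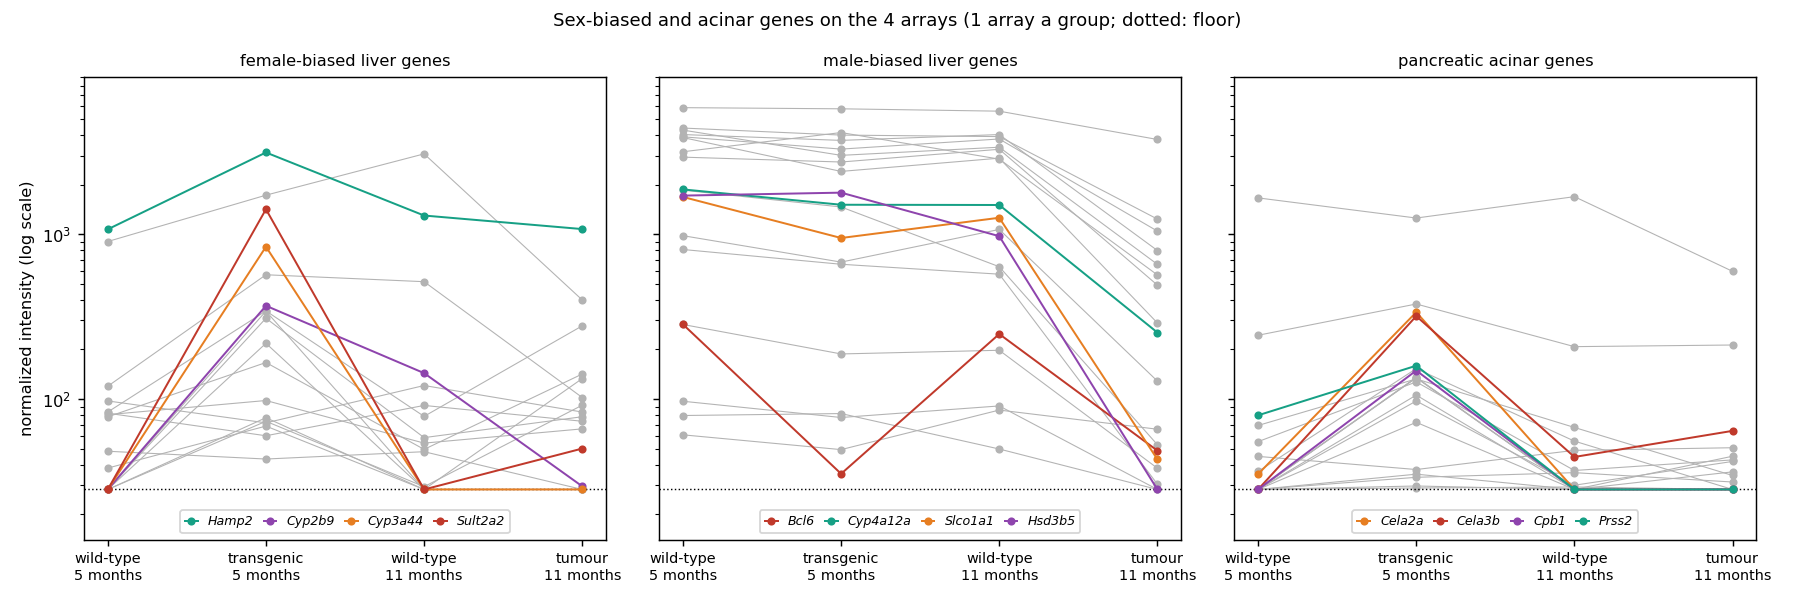
Normalized intensity on a log scale on each of the 4 arrays for measured female-biased, male-biased and pancreatic acinar genes; each line is a gene, coloured lines are named and the dotted line is the floor. Most female-biased and acinar lines peak at the 5-month transgenic array, while male-biased lines stay nearly level at 5 months and drop in tumour tissue.

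Transcripts of the exocrine pancreas were high on the 5-month transgenic array. Of 20 measured acinar genes 18 were above 0 (median 1.28) and 12 were 2-fold higher, 0 lower, beside 1.48% of all genes higher. The elastase gene Cela2a read 35.0 in wild-type and 337 in transgenic liver and was below the floor at 11 months on both arrays. The carboxypeptidase genes Cpb1 and Cpa1 read 149 and 135, the chymotrypsinogen gene Ctrb1 134 and colipase (Clps) 135, all from below the floor in wild-type liver. Cela3b, another elastase gene, was below the floor in wild-type and at 319 in transgenic liver on the probe set used, and on 2 of its other 3 probe sets it was above the floor on both arrays, with smaller log2 ratios of 1.08 and 1.21. Prss2, a trypsinogen, read 79.7 and 159. Its other 3 probe sets went from below the floor to 204, 181 and 132, with larger log2 bounds of 2.85, 2.68 and 2.22. The summed intensity of the list was 2445 in wild-type and 3907 in transgenic liver. Of these sums Amy1, which the liver also makes, gave 1664 and 1256. Of the listed genes Prss3, Pla2g1b, Reg1 and Spink1 were below the floor on both arrays. Of 12 markers of pancreatic islets 3 had a ratio and 0 were 2-fold apart, and the glucagon gene Gcg was below the floor on both arrays. Ptf1a, the acinar transcription factor, stood just above the floor, at 29.7. The part of pancreatic tissue in the other results was not tested. Zg16, a granule protein of the same list, went from 36.4 to 153, but another of its probe sets pointed the other way.

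Other cell types shifted less. Of 12 stellate cell and fibroblast markers 10 were above 0 (median 0.61), 3 by 2-fold, beside 1.48% of all genes higher: the collagen gene Col3a1 (117 and 251), Dpt (log2 ratio 1.08) and the growth factor receptor gene Pdgfrb (39.7 and 79.9). Col1a2 was at -0.10 and, of the wider list of extracellular matrix genes, 14 of 23 were above 0 (median 0.09). Endothelial markers had a median of 0.08, with Cdh5, the junction protein of vessels, at 62.7 in wild-type and below the floor in transgenic liver. Of the cholangiocyte markers 4 of 12 had a ratio, 2 above 0 and 2 below (median 0.05). Epcam was at 0.83, Prom1 was 2-fold higher as a bound and Tspan8 2-fold lower (95.1 and 37.0). In the cytoskeleton list Tuba1a, a tubulin of growing cells, read 72.6 and 195, and Tubb4a 98.7 in wild-type and below the floor in transgenic liver. Dynll1, a light chain of the dynein motor, was higher in transgenic tissue at each age, at 459 and 1434 at 5 months and 473 and 2329.7 at 11 months.

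The core work of the hepatocyte differed little in level. Of 27 complement and coagulation genes 25 were below 0, but by a median of -0.13 and none by 2-fold. Of 23 drug-metabolising cytochromes 16 were below 0 (median -0.04) and 2 were 2-fold higher, beside 1.48% of all genes. These were Cyp2c39, as a bound, and Cyp2b10, a target of the receptor CAR, at 56.5 and 113. Of 27 genes of amino acid breakdown and the urea cycle 21 were below 0 (median -0.17), with Etnppl alone 2-fold lower, from 1779 to 840.0. Of 26 oxidative phosphorylation genes none was at 2-fold (median -0.04). Gstm3, a glutathione transferase, read 484 and 1407 at 5 months and 584 and 1347 at 11 months, higher in transgenic tissue each time, and the other NRF2 targets were under 2-fold, with Nqo1 at 0.40. The hepatocyte factors Hnf4a and Foxa2 were even, at -0.02 and -0.03. Pericentral and beta-catenin target genes had a median of -0.02, with Glul at 0.01 and Axin2 at 0.63 as a bound; Ccnd1, also on that list, was its only member at 2-fold. The 16 measured regulators of apoptosis had 11 below 0 and 0 at 2-fold (median -0.25, but 0.045 without probe sets of multiple matches). The 15 measured p53 targets had 1 higher and 3 lower by 2-fold (median -0.03), beside 1.48% and 1.35% of all genes.

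The 11-month pair shares no array with the 5-month pair and shows how far the early differences were met again in tumours. Of the 187 genes higher at 5 months 48 (25.7%) were higher at 11 months too, which is 4.48% of the 1072 higher there (8.3% of all genes), and 13 (6.95%) were lower. Of the 171 lower genes 32 (18.7%) were lower again, or 3.8% of the 841 lower at 11 months (6.51% of all genes), and 20 (11.7%) were higher. The genes with the larger differences at both ages included Ccnd1, Nol12, Cyp17a1, Dynll1, Rps4l, Fabp5 and Mcm4 among the higher and Bcl6, Usp2 and Socs3 among the lower. Mcm4 read 30.5 in wild-type liver and 352 in tumour tissue at 11 months, and Usp2 299 and 104.

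Among the remaining genes with the largest ratios, several belong to none of the groups above. Eci3, an enoyl-CoA isomerase, was below the floor in wild-type and at 131 in transgenic liver. Ercc1, a subunit of a DNA repair nuclease, read 51.2 and 163, but 163 and 34.6 at 11 months. Pcnt, a scaffold of the centrosome, read 172 and 49.0, the mechanosensitive channel gene Piezo1 138 and 44.0, and Smpd2, a sphingomyelinase, 157 and 53.1. Sting1, the adaptor of cytosolic DNA sensing, at 95.7 in wild-type liver, and the stress kinase gene Plk3, at 87.0, were below the floor in transgenic liver. At 11 months Plk3 was again lower in transgenic tissue, at 109 in wild-type liver and below the floor in the tumour, whereas Pcnt was below the floor in wild-type liver and at 101 in the tumour.

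Several genes were called in opposite directions. Serpina4-ps1, a pseudogene of the serpin family, read 322 and 976 at 5 months but 307 and 64.8 at 11 months, and Id3, an inhibitor of transcription factors, 199 and 405 but 358 and 83.4. The reverse course was that of Lcn2 and Ddit4, described above, and of Tff3, a trefoil peptide of epithelia, with log2 ratios of -1.30 and 2.79 at 5 and 11 months. Zfas1, a host RNA of small nucleolar RNAs, read 154 and 58.9, then 183 and 986. Atf3, Cd14, Saa3 and Btg2, all genes of acute responses, were likewise lower at 5 months and higher in tumour tissue. These differences between ages were not tested, and at 11 months genotype and tumour tissue cannot be told apart.

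The wild-type array of 11 months served as an alternative control for the 5-month transgenic array, although age then differs too. Against it 343 of 12848 genes with a ratio were higher and 297 lower by 2-fold. Female-biased Sult2a2 and Cyp3a44, the acinar genes Cela2a and Cpb1, Ccnd1 (log2 ratio 2.37), Sqle (2.69), Angptl8 (2.24) and Hamp2 (1.27) were 2-fold higher against that array as well, and Igfbp1 (-2.79), Bcl6 (-2.82), Mt1 (-2.59), Mt2 (-2.53) and Saa1 (-4.01) 2-fold lower. Against that array Egr1 was at -1.14, Jun at -0.02, Ier2 at -0.25, Gadd45g at -0.31, Ddit4 at -0.08 and S100a9 at -0.51. The list counts that follow stand beside 343 higher and 297 lower of all 12848 genes. Of the female-biased list 12 of 18 genes were 2-fold higher against that array (median 1.34) and 0 lower, and of the acute phase list 5 of 22 were lower (median -0.40). Immediate early genes were 2-fold lower in 4 of 23 cases (median -0.24) in place of 10, and insulin-repressed genes in 1 of 17 (median -0.30). Ercc1 was even against that array. Pcnt (0.79), Piezo1 (0.64), Derl3 (-0.70), G0s2 (-0.59), Gadd45a (0.26), Trib1 (0.28) and Hspb1 (-0.22) turned their sign.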

How the data were processed

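Liver RNA of 5 wild-type mice and 5 transgenic for WHV/c-myc, all 5 months old, was read on 1 Affymetrix array a group, after Trizol extraction and biotin labelling of cRNA, per the labels. The authors deposited linear probe set intensities between 0 and 8783.5 for 45101 probe sets; their background correction and scaling were not given in the sources used here. Since log2 medians spanned 0.55 over the 4 arrays, all 4 were quantile normalized, and the median of all values (28.3) became the floor. Of 35890 probe sets in the platform annotation 34958 had 1 symbol and 932 several, the latter naming no gene; 9211 were unlisted; 34754 matched RefSeq (GRCm38.p6) by identifier, with 0 symbols changed. For each of 18194 genes the brightest probe set on average (in log2) with a single symbol was used, and 13956 genes were above the floor on some array.

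The 61 pathway and 18 marker lists, their members and all rules were chosen with earlier results of these data known. Named genes were the largest ratios and bounds, list members that were 2-fold apart or extreme in their list, members of the lists described, and genes called at both ages; clone names were not named, and a gene outside this is said to be chosen after its values were seen. With 1 array a group there was no test, p-value or standard deviation; 2-fold was the size rule. The steps were tested on simulated data. Alternatives were other scalings, floors (25th and 75th percentiles, or none with log2(value + 16)), probe set choices, size rules of 1.5-fold and 3-fold and control arrays. The tools were numpy 2.4.6 and pandas 2.3.3 under Python 3.11.15, with matplotlib 3.10.9 for plots.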

Additional observations from a re-analysis of the deposited data

Results flagged for a closer look

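For 17 named genes the transgenic array differed from the wild-type array by at least 2-fold in one direction at 5 months and in the opposite one at 11 months; with 1 array a group the difference between ages was not tested, and in several cases 1 of the values is a bound. Higher at 5 months and lower in tumour tissue were Cyp2b9 (log2 ratios 3.70 and -2.28), Acot3 (2.25 and -2.34), Ercc1 (1.67 and -2.23), Derl3 (1.64 and -1.67), Serpina4-ps1 (1.60 and -2.24), G0s2 (2.38 and -1.55) and Id3 (1.02 and -2.10). Lower at 5 months and higher in tumour tissue were Pcnt (-1.82 and 1.84), Piezo1 (-1.64 and 1.47), Ddit4 (-1.69 and 1.78), Atf3 (-1.85 and 1.42), Lcn2 (-1.41 and 2.60), Zfas1 (-1.39 and 2.43), Cd14 (-1.36 and 1.49), Tff3 (-1.30 and 2.79), Saa3 (-1.03 and 1.84) and Btg2 (-1.25 and 1.01).

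Signals outside the named genes also differed. The 24 poly-A spike-in probe sets were a median of 1.913-fold higher on the transgenic array at 5 months, as deposited, against 1.092-fold at 11 months. The platform's control probe set for the mouse B1 repeat, AFFX-MURINE_b1_at, read 236.1 in wild-type and 660.7 in transgenic liver at 5 months as deposited (2.798-fold), and 129.0 and 750.5 at 11 months (5.818-fold), while that for the B2 repeat read 6254.2 and 6295.7 at 5 months. Among 9160 probe sets that the annotation does not list, other than controls, 3363 had a ratio, and 30 were 2-fold higher (0.892%) and 73 lower (2.17%) at 5 months.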

How the results depend on the processing

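The 187 higher and 171 lower genes at 5 months numbered 926 and 911 at 1.5-fold and 39 and 27 at 3-fold. They numbered 971 and 914 when the floor was lowered to the 25th percentile, 54 and 45 when it was raised to the 75th, and 322 and 292 with no floor. Averaging a gene's probe sets gave 116 and 96, the wild-type array of 11 months as control 343 and 297, and the mean of both wild-type arrays 167 and 104. The values as deposited gave 137 and 208, so that the share of higher genes among those called went from 52.2% to 39.7%, and a shift to common medians gave 218 and 154. All scalings kept the median of all genes between -0.06 and 0.07 on the log2 scale. A turn of sign was counted only for lists whose median was at least 0.2 in size, so lists with smaller medians could not be counted. Chemokines and cytokines, for example, went uncounted from -0.116 to 0.217 against the 11-month wild-type array. Of 691 recomputed list medians, which include those of such lists, 9 turned their sign by this rule. Against the 11-month wild-type array these were ATF4 targets (0.046), TGF beta signalling (-0.088), fatty acid oxidation (-0.171), lipid droplets (-0.185) and platelet markers (-0.189). Against both wild-type arrays averaged they were ATF4 targets (0.012) and TGF beta signalling (-0.06), with the raised floor TGF beta signalling (-0.296), and without probe sets of multiple matches apoptosis regulators (0.045). Of the named genes, Derl3 (-0.704), G0s2 (-0.591), Ercc1 (-0.001), Gadd45a (0.263), Hspb1 (-0.218), Pcnt (0.792), Piezo1 (0.64) and Trib1 (0.278) turned against the 11-month wild-type array, and Zg16 (-0.35) without probe sets of multiple matches. Of 103 named genes at 2-fold, 34 of 101 were under it against the 11-month wild-type array, 26 against the mean of both, 32 of 97 with the raised floor, 15 with no floor, 18 with probe sets averaged, and 0 to 8 under each of the other alternatives. The causes were not tested. No paired analysis was possible because each group has 1 array. By mean intensity, 4.4% of genes between 50 and 100 and 1.57% of those over 500 were called.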

Other observations

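Genes of close families differed among themselves on the 5-month transgenic array; the examples here were chosen after their values were seen. Among the neighbouring Cyp3a genes of chromosome 5, Cyp3a11 and Cyp3a25 were close to even, with Cyp3a11 at 5284 in wild-type and 5172 in transgenic liver and Cyp3a25 at 3826 and 3206, whereas Cyp3a44 and Cyp3a16 appeared only on the transgenic array of that age. Among sulfotransferases, Sult2a8 read 2991 and 2619.9 beside the high bound of Sult2a2. Of the organic anion transporters on chromosome 19, Slc22a26 read 59.9 and 199, Slc22a27 105 and Slc22a29 97.8 from below the floor, and Slc22a30 977 and 978. Probe sets of Slc22a27 and Slc22a29 carry the suffix of multiple matches, which marks probes shared with other transcripts.

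Antibody transcripts were uneven. Beside Jchain, the heavy chain gene Igha of secreted immunoglobulin A read 192 and 80.0 and the light chain segment Igkv8-30 183 and 67.6, while Ighm, the heavy chain of immunoglobulin M, read 97.2 and 107. Called genes lay on all autosomes, and 2 chromosomes are named for their uneven counts. Chromosome 5 held 20 higher and 9 lower genes of 800 with a ratio, and chromosome 2 held 6 higher and 15 lower of 1002. Over all genes with a ratio 1.48% were higher and 1.35% lower.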
